A study of Caenorhabditis elegans with 54 samples.

Results

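Nuclear hormone receptors are transcription factors with a zinc finger domain that binds DNA and a domain that can bind a small lipophilic ligand. The family is greatly enlarged in Caenorhabditis elegans, where most members, named nhr with a number, descend from an ancestor related to vertebrate HNF4 and have no known ligand. A smaller group is conserved across animals and controls molting, organ development and the response to sterols. Other members couple diet and toxins to metabolism in the intestine.

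The genes described here are all names in the count files whose WormBase symbol is nhr followed by a number, nhr-249 included. There were 283 such genes, 269 protein coding and 14 pseudogenes, among 46003 names in the larger set of files and 45904 in the smaller one. Of these genes, 144 lay in 47 runs of 2 to 8 neighbouring nhr genes and 139 had no nhr neighbour, by the order of genes in the RefSeq table. They were chosen by name and not by any measured value.

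The series compared mutants of small RNA pathways in day 1 adults grown from synchronized L1 larvae, with 3 libraries per strain and assay and 8000 animals per sample. Set 1 holds small RNA from the single mutants ergo-1(tm1860) and prg-1(n4357), and its labels name 2 growth temperatures and harvest times without saying which applied to which library. Set 2 holds small RNA and mRNA of 8 strains grown at 20 °C for about 64 h. PRG-1 is the Argonaute of piRNAs, ERGO-1 an Argonaute of 26G-RNAs in oocytes and embryos, HRDE-1 a nuclear germline Argonaute and MUT-16 the scaffold of the foci where many 22G-RNAs are amplified. A 22G-RNA is a short RNA, antisense to a transcript, that an RNA-dependent RNA polymerase makes. The strains of set 2 were eri-6[e-f]Δ(cmp261), sosi-1Δ(cmp262), the double deletion sosi-1Δ eri-6[e-f]Δ(cmp263), each of these with mut-16(pk710), prg-1(n4357); hrde-1(tm1200) and prg-1(n4357); ergo-1(tm1860). All 6 strains of the mut-16 comparison thus carried at least 1 of the deletions, and both strains of the second pair lacked prg-1. Wild type and a strain with mut-16 alone were not analysed here. Libraries are labelled as triplicates, and nothing says that separate cultures were used. A p-value here thus reflects the variation among these samples, which may be technical.

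Library totals ran from 8.003 to 42.01 (in 1e6 counts) for small RNA and from 13.22 to 93.98 for mRNA, of which nhr genes took 0.205% to 0.490% and 0.0757% to 0.208%. The sosi-1 mRNA had 0 counts in all 4 strains with its deletion, and ergo-1 mRNA was at 3.45 ± 0.67 CPM (SD, n = 3; counts scaled to library size by TMM, in parts per 1e6) in prg-1; ergo-1 and at 56.5 to 314 in the means of the other strains. The mRNA of prg-1 and hrde-1 was not low under their labels: prg-1 stood at 84.1 and 110 CPM in the strains with its allele and at 86.4 to 317 in the means of the others, and hrde-1 at 255 in prg-1; hrde-1 and at 112 to 845 in the others. These levels do not check those 2 labels. The mut-16 mRNA did not go one way with the mut-16 label: its means were 28.6 and 23.6 CPM without and with the allele on eri-6[e-f], 65.6 and 16.7 on sosi-1, and 22.9 and 47.7 in the double deletion, a level that does not test a point allele. Small RNA of mut-16 itself was lower with the allele in all 3 backgrounds, at 207, 213 and 225 CPM without it and 93.3, 90.3 and 87.4 with it. The small RNA library of prg-1; hrde-1 replicate 1 stood apart from its replicates, and 1 small RNA library of prg-1; ergo-1, replicate 3, is labelled with the molecule of the mRNA assay. Counts were not divided by transcript length, so levels are compared between strains for 1 gene and not between genes. These are whole animals, in which fewer cells of a type and less RNA per cell cannot be told apart.

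The first comparison asked how small RNA of the receptor genes responded to the mut-16 allele. Most of the tested nhr genes had less of it with the allele. Of the 183 nhr genes with enough small RNA to be tested, 126 fell and 6 rose with mut-16 in eri-6[e-f], 134 fell and 3 rose in sosi-1, and 112 fell and 7 rose in the double deletion. Calls required at least a 2-fold change and, in edgeR's quasi-likelihood test, a Benjamini-Hochberg adjusted p below 0.05. Among all features tested, 40.8%, 41.8% and 38.8% fell and 14.4%, 13.9% and 12.3% rose in the same 3 backgrounds. The median log2 fold change of the tested nhr genes was -2.02, -2.23 and -1.57, where that of all features was -0.41, -0.37 and -0.25. In the mean of the 3 backgrounds 127 fell, against 41.9% of all features, and 6 rose, against 13.3%. Genes lower in every background numbered 108, or 59.0% of those tested, against 36.4% of all features. No nhr gene was called in opposite directions in different backgrounds. Of all features only 0.078% were, so this 0 is near their share. The interaction test, which asks whether the 3 effects of mut-16 differ, called 2 members in small RNA, against 9.58% of all features.

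**Figure D1:**
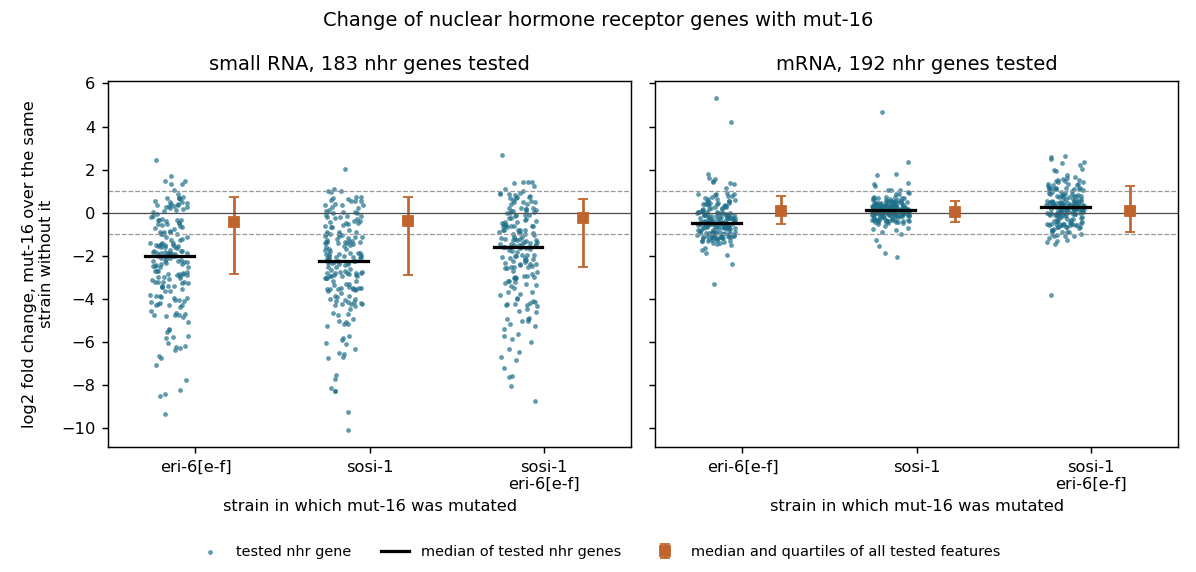
Log2 fold change with mut-16 (vertical axis) in each of the 3 deletion backgrounds, for small RNA (left) and mRNA (right). Each blue point is a tested nhr gene, the black bar their median, and the orange square with whiskers the median and quartiles of all tested features; dashed lines mark a 2-fold change. The small RNA medians of the nhr genes lie between -2.23 and -1.57 and the mRNA medians between -0.46 and 0.26; the mRNA points above 4 are nhr-73, nhr-235 and nhr-172, which had 0 counts in 1 of the strains compared.

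The steepest loss was at nhr-249, a member with no established function. Its small RNA stood at 261, 254 and 256 CPM in the 3 libraries of eri-6[e-f] and at 0.75, 0.10 and 0.59 CPM once mut-16 was mutated as well. It stood at 248, 227 and 234 CPM in sosi-1 and at 0.58, 0.11 and 0.41 in sosi-1; mut-16. In the double deletion it was at 274, 271 and 268 CPM, and in the triple mutant with mut-16 at 0.89, 0.57 and 0.31. In the 3 deletion backgrounds every library without mut-16(pk710) was thus far above every library with it. The log2 fold changes were -9.35 ± 0.24 (SE), -9.25 ± 0.22 and -8.72 ± 0.21, with adjusted p = 9.31e-20, 2.06e-20 and 3.00e-20.

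The mRNA of nhr-249 fell too. It read 1.18, 0.70 and 0.73 CPM in eri-6[e-f] and 0, 0.18 and 0.064 with mut-16. It read 0.43, 0.23 and 0.15 CPM in sosi-1 and 0.13, 0.035 and 0.071 with mut-16. It read 1.05, 0.81 and 1.09 CPM in the double deletion and 0.14, 0.031 and 0.073 with mut-16. The libraries with and without mut-16 did not overlap in any background, but the counts behind these values were small: 18, 7 and 9 reads in eri-6[e-f] and 0, 4 and 1 with mut-16, for example. The log2 fold changes were -3.30 ± 0.63 (adjusted p = 2.66e-04), -1.86 ± 0.66 (4.46e-02) and -3.83 ± 0.50 (4.86e-07). The call in sosi-1 was lost when any 1 library of sosi-1 or sosi-1; mut-16 but sosi-1 replicate 3 was left out, where the change ranged from -2.34 (without sosi-1; mut-16 replicate 1) to -1.32 (without sosi-1 replicate 1). The mRNA was also higher in the double deletion than in sosi-1, by 1.77 ± 0.43 (adjusted p = 9.59e-04), and was not called between the double deletion and eri-6[e-f] (0.13 ± 0.40).

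**Figure D2:**
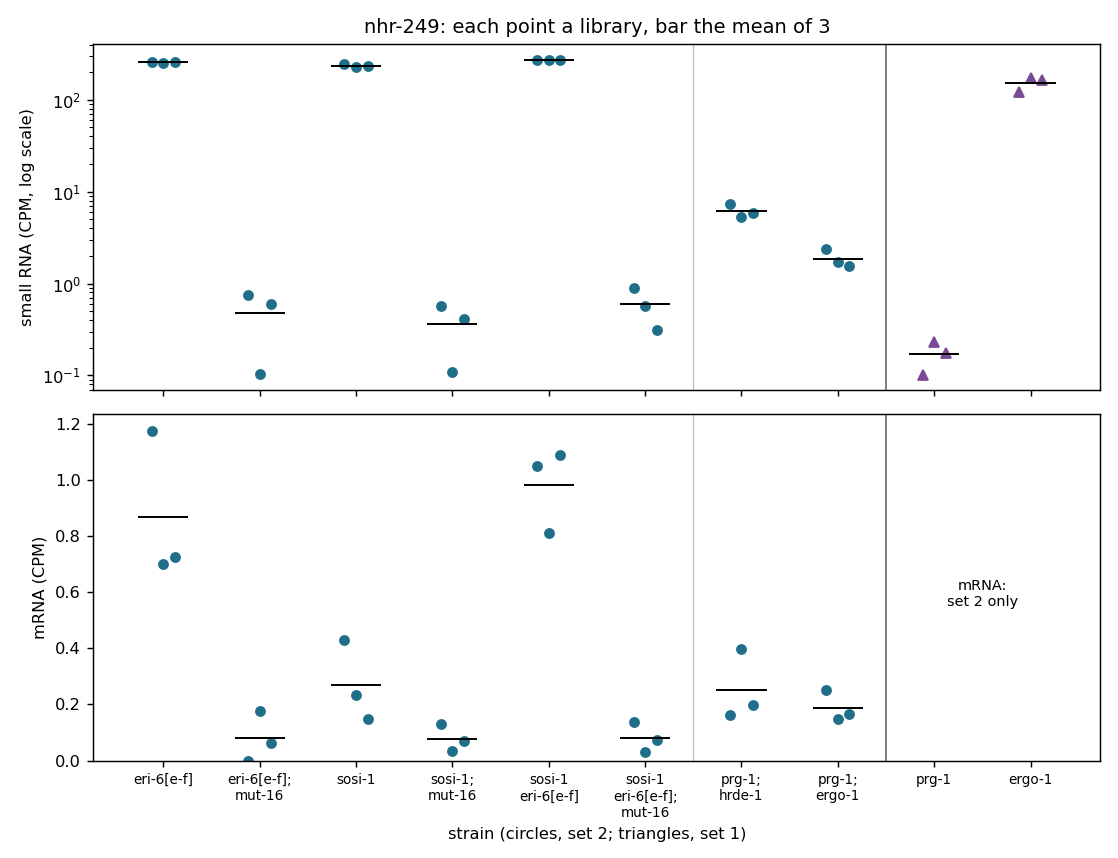
Small RNA (upper panel, CPM on a log axis) and mRNA (lower panel, CPM on a linear axis) of nhr-249 in each library; circles are set 2, triangles set 1 and bars the mean of 3 libraries. Small RNA is between 227 and 274 CPM in the 3 deletion strains and below 1 CPM in all 9 libraries with mut-16 and in prg-1, and mRNA is at or below 0.18 CPM in all libraries with mut-16.

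Other members lost nearly all small RNA as well. For nhr-204 the values were 304, 292 and 299 CPM in eri-6[e-f], and 1.36, 0.66 and 1.31 with mut-16, and the mean log2 fold change over the backgrounds was -8.16 ± 0.10 (adjusted p = 9.18e-27). For nhr-236 they were 127, 119 and 124 CPM and 1.13, 0.28 and 0.59, with a mean change of -7.54 ± 0.09. In these 3 backgrounds no library with mut-16 came near one without it for either gene. The other members among the 10 lowest in the mean were nhr-58 (-8.12 ± 0.11), nhr-146 (-8.05 ± 0.11), nhr-81 (-7.70 ± 0.27 as fitted), nhr-3 (-7.12 ± 0.08), nhr-244 (-6.58 ± 0.32), nhr-221 (-6.27 ± 0.22) and nhr-15 (-6.26 ± 0.08). The small RNA of nhr-81 had 373 counts in sosi-1 and 0 with mut-16, so that it was at least 217-fold lower there, against a floor of 3 counts over the group. With that bound in place of the fit, its mean change was -6.92, which puts it after nhr-3. In eri-6[e-f] it had 316 counts and 3 with mut-16, a ratio of 0.00871 (95% interval 0.00179 to 0.0257, counting error only).

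The gene with the most small RNA counts of the family in these strains, nhr-15, behaved differently between the other pathway mutants. It had 947, 895 and 906 CPM in eri-6[e-f] and 15.2, 10.5 and 10.8 with mut-16, and the drop in the other 2 backgrounds was from 989 to 1073 and from 802 to 804 CPM to between 10.8 and 13.5. In prg-1; hrde-1 its small RNA was at 3232, 4449 and 3559 CPM and in prg-1; ergo-1 at 2399, 2636 and 2379, above every library of the deletion strains. The mRNA of nhr-15 was called higher with mut-16 in sosi-1, at 1.25, 1.94 and 2.00 CPM without and 3.77, 3.59 and 3.25 CPM with it (1.04 ± 0.21, adjusted p = 7.56e-04), a call lost without sosi-1 replicate 1 (0.84) or sosi-1; mut-16 replicate 1 (0.99). The mean over backgrounds was 0.64 ± 0.12 and not called. Many small RNA reads of nhr-15 were split between features in the deposited estimates, as whole numbers were rare among its counts, so its level is less certain than its drop.

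Small RNA was higher with mut-16 for 6 members, with mean log2 changes of at most 2.39. For nhr-86, a sensor of bacterial and other toxins in the intestine, it was 218, 206 and 218 CPM in eri-6[e-f] and 539, 526 and 532 with mut-16, and the mean change was 1.06 ± 0.04 (adjusted p = 5.40e-17). For nhr-63 the values were 0.35, 0.35 and 0.16 CPM against 2.04, 1.73 and 1.25, with a mean change of 2.39 ± 0.20 (adjusted p = 8.04e-11). The groups did not overlap for either gene. The others were nhr-34 (1.27 ± 0.07), nhr-135 (1.22 ± 0.14), nhr-182 (1.20 ± 0.12) and nhr-218, which was below 1 CPM. CPM values are shares: with libraries scaled to microRNA counts, only 1 nhr gene was called higher, and nhr-86 and nhr-182 turned to -0.16 and -0.02. The call of nhr-86 was also lost without sosi-1 replicate 3 (0.97). In nhr-86 and several other members with many counts, part of the reads was split between features.

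**Figure D3:**
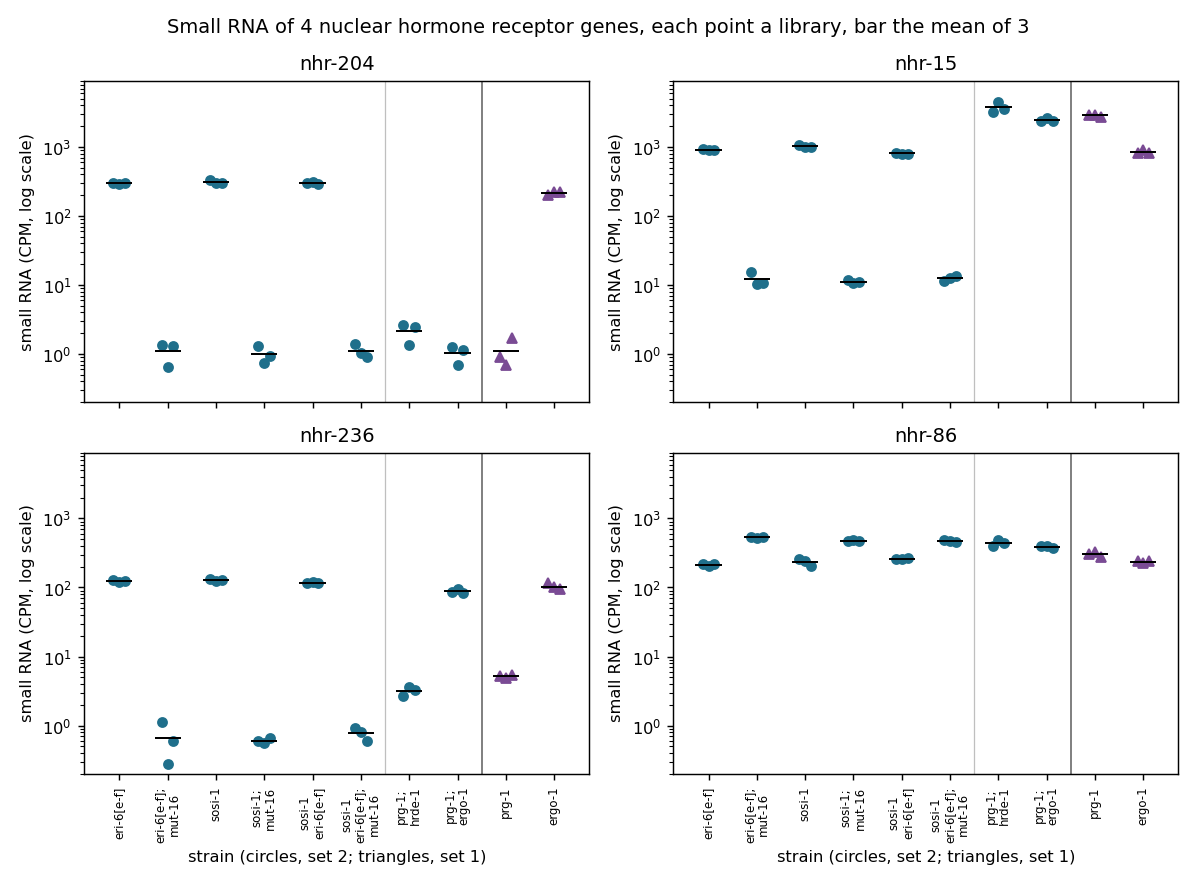
Small RNA (CPM, log axis) of nhr-204, nhr-15, nhr-236 and nhr-86 in every library of the 10 strains; circles are set 2, triangles set 1 and bars the mean of 3 libraries. The first 3 genes drop in every strain with mut-16 while nhr-86 lies at 451 to 539 CPM there and at 206 to 266 in the 3 strains without it, and nhr-236 is at 83.6 to 94.3 CPM in prg-1; ergo-1 but at 2.65 to 3.59 in prg-1; hrde-1.

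The loss reached receptors of each of the 4 roles listed. Of all features 41.9% fell in the mean over backgrounds. Of the receptors conserved across animals, 8 of 9 were tested and 7 fell in this mean, with a median change of -2.15. The largest drop among them was at nhr-8, a relative of DAF-12 that acts in toxin resistance and cholesterol balance, at 33.3, 34.2 and 27.4 CPM in eri-6[e-f] and 0.60, 0.48 and 0.66 with mut-16 (-6.0 ± 0.11, adjusted p = 4.36e-23). Its relative nhr-48 went from 99.6, 102 and 107 CPM to 11.5, 11.6 and 12 (-3.12 ± 0.04). The NR4A homolog nhr-6, needed for the spermatheca, changed by -2.40 ± 0.11, the Rev-erb homolog nhr-85 by -2.22 ± 0.19, nhr-41 by -2.09 ± 0.17, the Ftz-F1 homolog nhr-25 by -1.60 ± 0.24 and nhr-91 by -1.58 ± 0.21. The exception was nhr-23, the ROR homolog that drives molting, whose small RNA changed by 0.60 ± 0.03 and did not reach 2-fold. The tailless homolog nhr-67 had too few counts to be tested in either assay.

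In the mean over backgrounds 41.9% of all features fell and 13.3% rose. Among 11 receptors with roles in metabolism, 6 fell and none rose in this mean, with a median of -1.13. They were nhr-64 (-4.48 ± 0.14), nhr-68, which acts in the propionate shunt (-3.15 ± 0.24), nhr-114, which acts in the response to vitamin B12 and methionine cycle state (-2.63 ± 0.17), nhr-80, which controls fatty acid desaturation (-2.23 ± 0.29), nhr-69 (-1.75 ± 0.25) and nhr-10, a partner of nhr-68 in the shunt (-1.13 ± 0.06). The central regulator of fat use nhr-49 (0.61 ± 0.03) and its partner nhr-66 (0.52 ± 0.03) stayed under 2-fold, as did nhr-13 (0.20 ± 0.07), nhr-62 (-0.07 ± 0.25) and nhr-76 (0.00 ± 0.39). Among 6 receptors of stress and toxin responses, 4 fell and 1, nhr-86, rose. The 4 were nhr-8, the iron regulator nhr-14 (-2.77 ± 0.22), nhr-176 (-2.08 ± 0.26) and the hypoxia-induced nhr-57 (-1.29 ± 0.16). Among 8 receptors of development, 7 were tested and 5 fell, from nhr-40 (-3.75 ± 0.08) to nhr-25, while nhr-2 (0.44 ± 0.08) and nhr-23 were not called.

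The loss was also seen in each class of position and coding status, in a mean effect in which 41.9% of all features fell. Of the nhr genes in neighbouring runs, 65 of 89 tested fell and their median was -2.16, and of those without an nhr neighbour 62 of 94 fell and their median was -1.78. Of 12 runs of at least 5 nhr genes, all tested members fell in 3. The run of nhr-196, nhr-197, nhr-198, nhr-200 and nhr-268 had 0 tested members. In the remaining runs 50% to 80% of the tested members fell, and over the 12 runs 37 of 49 tested members did. In the run that holds nhr-87, nhr-92, nhr-122, nhr-146 and nhr-287 all 5 fell, by log2 changes from -8.05 to -2.45. In the run of nhr-55, nhr-99, nhr-106, nhr-130, nhr-211 and nhr-212 all 6 fell, from -5.53 to -2.09. In the run of nhr-136, nhr-153, nhr-154, nhr-206, nhr-207, nhr-208 and nhr-209, by contrast, 4 of 7 fell. All 8 tested pseudogenes fell, with a median of -2.40. These differences between classes were not tested.

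The second question was whether the mRNA of the receptors moved as their small RNA fell. Most of it was not called. In the mean over backgrounds 6 of 192 tested nhr genes rose in mRNA and 1 fell, against 13.2% and 4.7% of all features, and the median was 0.03, where that of all features was 0.06. Of the 166 nhr genes tested in both assays, 113 were lower in small RNA and not called in mRNA in this mean, none was lower in small RNA and higher in mRNA, and only nhr-249 was lower in both. Among all features tested in both assays, 475 of the 4879 with less small RNA, or 9.74%, were higher in mRNA. With only 6 nhr genes higher and 1 lower in mRNA, few could be called in both assays. The 113 is thus not shown to be particular to the receptors.

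Within single backgrounds more members were called in both assays. In eri-6[e-f] 20 of 113 members with less small RNA, or 17.7%, were lower in mRNA, against 15.1% of all features with less small RNA, and 1, nhr-6, was higher, against 10.4%. The 20 included nhr-58, nhr-59, nhr-88, nhr-99 and nhr-249. In sosi-1 only nhr-249 of 122 was lower in both, against 4.58%, and nhr-15, nhr-43 and nhr-136 were lower in small RNA and higher in mRNA, or 2.46%, against 9.47%. In the double deletion 8 of 102, or 7.84%, were lower in both, against 22.4%, with nhr-92, nhr-122, nhr-243, nhr-249 and nhr-287 among them, of which all but nhr-249 lost the mRNA call with library size scaling. There 12, or 11.8%, were lower in small RNA and higher in mRNA, against 23.2%, and these included nhr-5, nhr-6, nhr-14, nhr-25, nhr-48 and nhr-136. The difference between these shares was not tested. The mRNA of several members that lost nearly all small RNA was not called in the mean. That of nhr-204 stayed between 1.98 and 3.43 CPM in all 24 libraries (0.15 ± 0.11). The mRNA of nhr-3 changed by 0.19 ± 0.10 and that of nhr-8 by -0.42 ± 0.12, and neither was called.

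**Figure D4:**
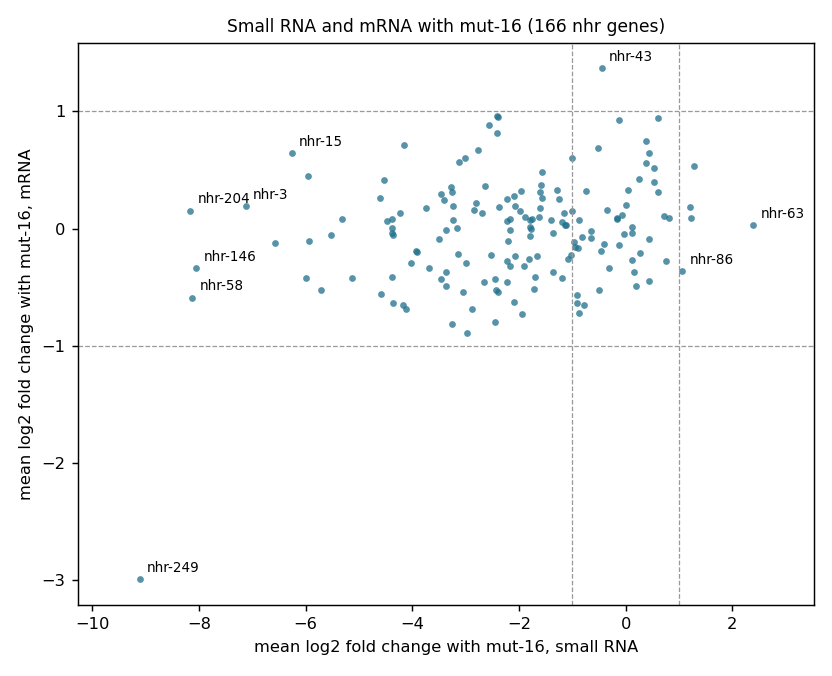
Mean log2 fold change with mut-16 over the 3 backgrounds in small RNA (horizontal axis) and mRNA (vertical axis) for the 166 nhr genes tested in both assays. In mRNA, 164 of the 166 lie within 1 of zero; nhr-249 lies apart at -9.11 and -3.0 and nhr-43 at -0.45 and 1.37.

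The mRNA effect of mut-16 depended on the background in many members. In eri-6[e-f] 6 nhr genes rose and 33 fell, against 16.2% and 9.48% of all features. In sosi-1 6 rose and 2 fell, against 10.4% and 3.24%. In the double deletion 31 rose and 9 fell, against 28.1% and 22.1%. The interaction test called 83 mRNA members, or 43.2%, against 60.1% of all features. Called in opposite directions in 2 backgrounds were 3 members (1.56%), against 2.69% of features. No member rose in every background, against 5.23% of features. Only nhr-249 (0.521%) fell in every one, against 0.741%, with the limit on its sosi-1 value given above. These counts moved with single libraries: without eri-6[e-f] replicate 3 the mRNA counts in that background were 9 and 50, and without sosi-1 replicate 1 they were 15 and 2 in sosi-1. Scaled by library size alone, they were 9 and 17 (eri-6[e-f]), 7 and 1 (sosi-1) and 68 and 1 (double deletion), where all features shifted by a median of 0.56.

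Tissue markers differed between the same strains. Summed mRNA of 8 germline markers was 534 to 738 CPM for eri-6[e-f] and 804 to 1969 with mut-16, 1152 to 1694 in sosi-1 and 776 to 1092 with mut-16, and 727 to 946 in the double deletion and 1806 to 2006 with mut-16. None of the 8 was at 0 in any library. Summed mRNA of 35 major sperm protein genes was 39.0 to 98.2 CPM for eri-6[e-f] and 532 to 710 with mut-16, 229 to 309 in sosi-1 and 850 to 969 with mut-16, and 101 to 113 in the double deletion and 679 to 762 with mut-16. Between 0 and 5 of these 35 were at 0 in a library. In the mean effect 33 of 33 tested sperm genes were higher. The 5 muscle markers summed to 4648 to 9269 CPM for eri-6[e-f] and 1749 to 3932 with mut-16, 1650 to 2928 in sosi-1 and 2002 to 3510 with mut-16, and 3811 to 5631 in the double deletion and 1404 to 1480 with mut-16. The yolk genes summed to 76340 to 108200 CPM for eri-6[e-f] and 42990 to 53120 with mut-16, 57730 to 71960 in sosi-1 and 28650 to 32870 with mut-16, and 44500 to 52820 in the double deletion and 39050 to 45690 with mut-16. Intestine markers summed to 963 to 1679 CPM for eri-6[e-f] and 1082 to 1480 with mut-16, which overlap. They were at 938 to 1237 in sosi-1 and 1326 to 2085 with mut-16. The double deletion had 1269 to 1793, and 683 to 731 with mut-16. Oocyte and eggshell markers were at 3343 to 4438 for eri-6[e-f] and 5897 to 10840 with mut-16. In sosi-1 they were at 6603 to 9531 and 3309 to 5529 with mut-16. The double deletion had 5148 to 6646, and 8621 to 9582 with mut-16. The part of these markers in the receptor results was not tested.

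Among called members with a strain mean of at least 1 CPM, the mRNA of nhr-23 showed the largest difference between backgrounds. It was 8.63, 7.81 and 10.9 CPM in eri-6[e-f] and 49.7, 22.2 and 23.3 with mut-16. It was 13.6, 14.9 and 10.7 CPM in the double deletion and 55.5, 53.8 and 48.6 with mut-16. In sosi-1, by contrast, it was 31.4, 42.1 and 45.8 CPM, and 14.4, 26.7 and 19.8 with mut-16. Libraries with mut-16 were thus all above those without it in the first 2 backgrounds and all below in sosi-1. The changes were 1.8 ± 0.32 (adjusted p = 1.17e-04), 2.01 ± 0.31 (4.01e-06) and -0.97 ± 0.30, the last not called. The interaction spread was 2.98 (adjusted p = 1.10e-05).

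For nhr-43 it was eri-6[e-f] that stood aside. Its mRNA was 2.61, 2.80 and 1.61 CPM in eri-6[e-f] and 2.78, 2.45 and 1.67 with mut-16, which overlap. It was 1.35, 2.13 and 1.17 CPM in sosi-1 and 6.00, 5.26 and 4.53 with mut-16. It was 0.86, 0.90 and 0.85 CPM in the double deletion and 4.21, 5.03 and 4.30 with mut-16. In the last 2 backgrounds the groups did not overlap, with changes of 1.75 ± 0.27 (adjusted p = 3.29e-05) and 2.37 ± 0.28 (1.02e-07). It was the only member above 1 CPM that rose in the mean effect (1.37 ± 0.16, adjusted p = 1.23e-07), and its small RNA was not called there. The other 5 that rose, nhr-74, nhr-93, nhr-172, nhr-235 and nhr-263, had strain means below 1 CPM. Of these, nhr-172 and nhr-235 had 0 counts in 1 strain, and with bounds in place of those fits their mean changes were 1.40 and 0.81.

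By role, calls in the conserved and developmental lists came in 2 of the 3 backgrounds. Of all features, 16.2% rose in eri-6[e-f], 10.4% in sosi-1 and 28.1% in the double deletion. Of the conserved list, 2 rose in eri-6[e-f], none changed in sosi-1, and 4 rose in the double deletion, with none falling. In the double deletion these were nhr-23, nhr-48 (1.57 ± 0.21), nhr-25 (1.54 ± 0.31) and nhr-6 (1.15 ± 0.28). The mRNA of nhr-6 also rose in eri-6[e-f], from 0.46, 0.60 and 0.64 CPM to 1.93, 1.40 and 1.16 (1.42 ± 0.35, adjusted p = 2.52e-03). Of the developmental list, 3 rose in eri-6[e-f] and 3 in the double deletion. In the metabolic list nhr-66 rose (1.30 ± 0.27) and nhr-13 fell (-1.30 ± 0.22) in the double deletion and none changed in eri-6[e-f]. In the stress list nhr-14 (1.27 ± 0.18) and nhr-45 (1.12 ± 0.21) rose in the double deletion. In the mean effect no member of any of the 4 lists was called in mRNA.

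Other members had their largest mRNA changes in 1 background. In eri-6[e-f] the lowest were nhr-249, nhr-206 (-1.85 ± 0.43), nhr-18 (-1.72 ± 0.32), nhr-103 (-1.62 ± 0.29) and nhr-99 (-1.47 ± 0.38), followed by nhr-58 (-1.45 ± 0.29). In sosi-1 nhr-181 fell (-1.25 ± 0.38, adjusted p = 2.00e-02) and nhr-136 rose (1.07 ± 0.29), both calls lost without sosi-1; mut-16 replicate 1 (-1.18 and 0.98), among others. In the double deletion nhr-136 (2.05 ± 0.31), nhr-5 (1.96 ± 0.23), nhr-71 (1.77 ± 0.26) and nhr-144 (1.68 ± 0.37) rose, and nhr-287 (-1.44 ± 0.48, not called without replicate 2 or 3 of the double deletion), nhr-122 (-1.36 ± 0.20), nhr-92 (-1.28 ± 0.30) and nhr-243 (-1.18 ± 0.20) fell. With library size scaling these 4 and nhr-13 were not called. The member with the most mRNA counts, nhr-114, changed by 0.37 ± 0.10 in the mean and was not called.

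Genes of the pathways in which the receptors act were examined beside them. In the mean mut-16 effect 41.9% of all features fell in small RNA and 4.7% in mRNA. Of 5 receptors with other names, 3 were tested in small RNA and 2 fell: the dafachronic acid receptor daf-12 (-2.25 ± 0.18) and the neuronal receptor unc-55 (-2.0 ± 0.27). The mRNA of sex-1, a receptor that counts X chromosomes, rose from a mean of 9.64 to 17.5 CPM over the backgrounds (1.00 ± 0.15, adjusted p = 3.46e-06), which is at the 2-fold limit. It rose in eri-6[e-f] (1.72 ± 0.27) and the double deletion (1.52 ± 0.25) and changed by -0.23 ± 0.25, not called, in sosi-1. The interaction test called this difference, with a spread of 1.94 (adjusted p = 9.62e-05). Of the cofactor and ligand synthesis genes, daf-36, an enzyme of dafachronic acid synthesis, lost small RNA (-4.69 ± 0.22). In mRNA none of 5 tested was called in the mean, but daf-36 fell in eri-6[e-f] (-1.17 ± 0.23), and in the double deletion the corepressor din-1 (1.94 ± 0.24) and the Mediator subunit mdt-15 (1.58 ± 0.23) rose and the SUMO gene smo-1 fell (-1.91 ± 0.20). The interaction test called these 4. Of 13 known target genes of the receptors, 6 of 12 tested fell in small RNA and 3 of 13 fell in mRNA in the mean, with none rising in either. In mRNA, 5, 1 and 7 of the 13 fell in eri-6[e-f], sosi-1 and the double deletion, against 9.48%, 3.24% and 22.1% of all features. In the double deletion 1, metr-1, rose. Both fell for acs-2, an NHR-49 target that activates fatty acids for oxidation: small RNA changed by -7.42 ± 0.10 and mRNA by -2.61 ± 0.15 (adjusted p = 3.29e-13). The other 2 with less mRNA were the NHR-49 target fmo-2 (-3.03 ± 0.44) and alh-8 of the propionate shunt (-1.07 ± 0.17).

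The next comparison set the double deletion against each single deletion, in strains with intact mut-16. Small RNA of the receptors differed little. Against eri-6[e-f] no member was called, against 0.312% of all features higher and 0.897% lower in edgeR's test, and 10 of 183 members had an unadjusted p below 0.05, against 21% of all features. Against sosi-1 5 members were lower and none higher, with 8.99% and 0.442% of all features. They included nhr-229 (-1.48 ± 0.28, adjusted p = 4.87e-04), nhr-171 (-1.35 ± 0.41) and nhr-68 (-1.08 ± 0.32), the last 2 not called without any of 3 and of 4 single libraries, sosi-1 replicate 3 (-1.19 and -0.90) among them. In mRNA more members were called. Of 192 tested, 46 (24%) were lower and 5 (2.6%) higher than in sosi-1, against 24.7% and 17% of all features. The share lower than in sosi-1 was thus near that of all features. Against eri-6[e-f] 48 (25%) were lower and 3 (1.56%) higher, where 10.4% and 8.72% of all features were. The medians were -0.47 and -0.58 where those of all features were -0.17 and 0.06. The 2 comparisons share the double deletion libraries. Without sosi-1 replicate 1, 24 were lower than in sosi-1, and without eri-6[e-f] replicate 3, 66 were lower and 11 higher than in eri-6[e-f]. Tissue markers differed between these strains too, by the ranges given above, or below for cuticle, with no overlap of libraries in the contrasts named here. Sperm markers were lower in the double deletion than in sosi-1 and higher than in eri-6[e-f]. Germline markers were lower than in sosi-1, muscle and intestine markers higher than in sosi-1, and yolk markers lower than in both. Oocyte and eggshell markers were higher than in eri-6[e-f]. Cuticle markers were higher than in sosi-1, at 1226 to 2113 against 851 to 1168 CPM. The part of all these markers in the receptor differences was not tested.

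From the conserved list, 5 receptors were among those lower than in sosi-1, where 24.7% of all features were lower. These 5 were nhr-25 (-1.86 ± 0.32), nhr-23 (-1.60 ± 0.31), nhr-48 (-1.57 ± 0.21), nhr-6 (-1.32 ± 0.28) and nhr-41 (-1.16 ± 0.26). The lowest by rule were nhr-99 (-2.05 ± 0.37), nhr-144 (-1.90 ± 0.37), nhr-25, nhr-107 (-1.76 ± 0.40) and nhr-232 (-1.72 ± 0.27). Of the few that were higher, nhr-15 rose most among those above 1 CPM, to 6.02, 6.06 and 4.90 CPM from 1.25, 1.94 and 2.00 (1.73 ± 0.21, adjusted p = 4.07e-07), with no overlap. Against eri-6[e-f] the lowest were nhr-195 (-2.46 ± 0.44), nhr-107 (-2.30 ± 0.41), nhr-208 (-2.19 ± 0.38), nhr-206 (-2.18 ± 0.42) and nhr-99 (-2.13 ± 0.39). The mRNA of nhr-86 was higher in the double deletion than in both, at 103, 99.5 and 64.2 CPM against 34.1, 45.1 and 47.2 in sosi-1 and 32.7, 35.4 and 52.9 in eri-6[e-f] (1.08 ± 0.23 and 1.14 ± 0.23). The call against sosi-1 was lost without sosi-1 replicate 1 (0.95) or the double deletion's replicates 1 or 2, and neither was called with library size scaling (0.51 and 0.90).

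The strains prg-1; ergo-1 against prg-1; hrde-1 compared loss of the 26G-RNA Argonaute with loss of the nuclear one, both without piRNAs. In small RNA 37 members were lower and 6 higher in prg-1; ergo-1, against 16.9% and 6.7% of all features, and the median was -0.42 against -0.03. Without prg-1; hrde-1 replicate 1 these were 32 and 9. The largest difference was at nhr-236, at 84.6, 94.3 and 83.6 CPM in prg-1; ergo-1 and 2.65, 3.59 and 3.27 in prg-1; hrde-1 (4.75 ± 0.13, adjusted p = 1.53e-18). Small RNA of nhr-249 was low in both, at 2.35, 1.72 and 1.55 CPM and at 7.36, 5.34 and 5.87 (-1.70 ± 0.25, adjusted p = 5.43e-06). Small RNA of nhr-204 was also low in both, at 1.28, 0.69 and 1.15 CPM and at 2.65, 1.37 and 2.48. All 6 libraries lay below every library of the deletion strains with intact mut-16 for nhr-249 and nhr-204.

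Other members higher in prg-1; ergo-1 were nhr-4, at 25.0, 20.4 and 25.5 CPM against 8.13, 8.6 and 5.19 (1.67 ± 0.12), nhr-91 (1.61 ± 0.37) and nhr-248, at 1.77, 1.72 and 1.95 CPM against 0.26, 0.19 and 0.11 (3.20 ± 0.46). The groups did not overlap for these. Among the lowest were nhr-76 (-3.13 ± 0.66) and nhr-229 (-2.67 ± 0.69, adjusted p = 2.34e-03), both of which were high in replicate 1 of prg-1; hrde-1 alone. That library had 25.6 CPM of nhr-76 where the others had 2.04 and 3.05, and 7.03 of nhr-229 where the others had 0.67 and 1.35. Without it nhr-229 changed by -0.91 and lost its call. The nhr-50 and nhr-112 genes were lower by 2.28 ± 0.41 and 2.27 ± 0.43 on the log2 scale.

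In mRNA of the same pair 47 of 192 members (24.5%) were lower in prg-1; ergo-1, which is near the 24.4% of all features. Only 1 (0.521%) was higher, against 4.66%, and the median was -0.53 against -0.16. Members in neighbouring runs made up 33 of the 47, of 99 tested, and members without an nhr neighbour 14, of 93 tested. The lowest were nhr-151 (-1.79 ± 0.37), nhr-15 (-1.78 ± 0.22), nhr-148 (-1.77 ± 0.36), nhr-44 (-1.62 ± 0.35) and nhr-115 (-1.53 ± 0.29). The mRNA of nhr-15 was 0.78, 0.56 and 0.79 CPM in prg-1; ergo-1 and 2.38, 2.28 and 2.67 in prg-1; hrde-1. The gene that was higher was nhr-2, a receptor of the early embryo, at 15.3, 11.4 and 17.2 CPM against 5.69, 4.91 and 4.97 (1.49 ± 0.30, adjusted p = 2.98e-04). Beside these, sperm genes summed to 1511 to 1785 CPM in prg-1; ergo-1 and 2691 to 3764 in prg-1; hrde-1, and 12 oocyte and eggshell genes to 4091 to 6580 and 2517 to 3436. The yolk genes summed to 29030 to 53900 CPM in prg-1; ergo-1 and 6989 to 8431 in prg-1; hrde-1. Their part in the result was not tested. Of the members tested in both assays, 8 were lower in both, which is 22.2% of the 36 lower in small RNA and 23.5% of the 34 lower in mRNA. Among all features 1087 were lower in both, or 48.7% and 41.1% of the 2 lists. The 22.2% is thus near the 24.5% of tested nhr genes that were lower in mRNA. The 23.5% is near the 20.2% of tested nhr genes that were lower in small RNA.

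Set 1 set ergo-1 against prg-1 in small RNA, where 115 members were tested. In ergo-1 56 were higher and 8 lower, against 30.4% and 15.6% of all features, and the median was 0.95 where that of all features was 0.04. For nhr-249 the 3 libraries of prg-1 held 0.10, 0.23 and 0.18 CPM and those of ergo-1 120, 171 and 164 (9.69 ± 0.25, adjusted p = 1.41e-12). For nhr-204 they held 0.92, 0.68 and 1.68 CPM and 202, 219 and 222 (7.62 ± 0.15, adjusted p = 7.11e-14). The groups were far apart for both. Other members with a large difference were nhr-146 (6.95 ± 0.19), nhr-58 (6.28 ± 0.21), nhr-40 (5.12 ± 0.20), nhr-3 (4.98 ± 0.14), nhr-236 (4.32 ± 0.11), nhr-8 (4.20 ± 0.17), nhr-64 (4.14 ± 0.17), nhr-1 (3.05 ± 0.12) and nhr-48 (2.77 ± 0.10). In nhr-150 the ratio was 358 counts to 1, or 275-fold (95% interval 49 to 10880, counting error only), and in nhr-149 it was 586 to 2, or 225-fold (61.9 to 1860). In nhr-234 53 counts stood against 0, at least 13.6-fold higher.

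Among the 8 lower in ergo-1 was nhr-15, at 826, 903 and 809 CPM against 2907, 2911 and 2750 in prg-1 (-1.75 ± 0.07, adjusted p = 1.07e-10). The groups did not overlap, and their order was the reverse of that of nhr-249. Also lower were nhr-132 (-2.22 ± 0.39), nhr-53 (-2.04 ± 0.43), nhr-88 (-1.54 ± 0.10), nhr-34 (-1.18 ± 0.17), nhr-102 (-1.13), nhr-286 (-1.13) and nhr-57 (-1.05). With library size scaling these last 4 were at -0.87, -0.82, -0.82 and -0.73 and were not called. Of the conserved list 4 of 8 tested were higher in ergo-1 and none lower, and of 9 tested metabolic receptors 1 was higher, nhr-64. Of all features 30.4% were higher and 15.6% lower.

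The genes whose small RNA was called higher in ergo-1 were nearly all genes that lost small RNA with mut-16. Sets 1 and 2 share no libraries. Of the 56 nhr genes higher in ergo-1, 55, or 98.2%, fell with mut-16 in the mean over backgrounds, and these are 68.8% of the 80 that fell and were tested in both sets. Among all features the same overlap was 3137 of 3561, or 88.1%, and 68.2% of 4601. Of the 8 lower in ergo-1, 4 fell with mut-16 and 1 rose, where 25.6% and 57.1% of the features lower in ergo-1 did. Of the 51 not called between ergo-1 and prg-1, 21, or 41.2%, fell and 3, or 5.88%, rose, against 15.7% and 7.69% of such features.

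**Figure D5:**
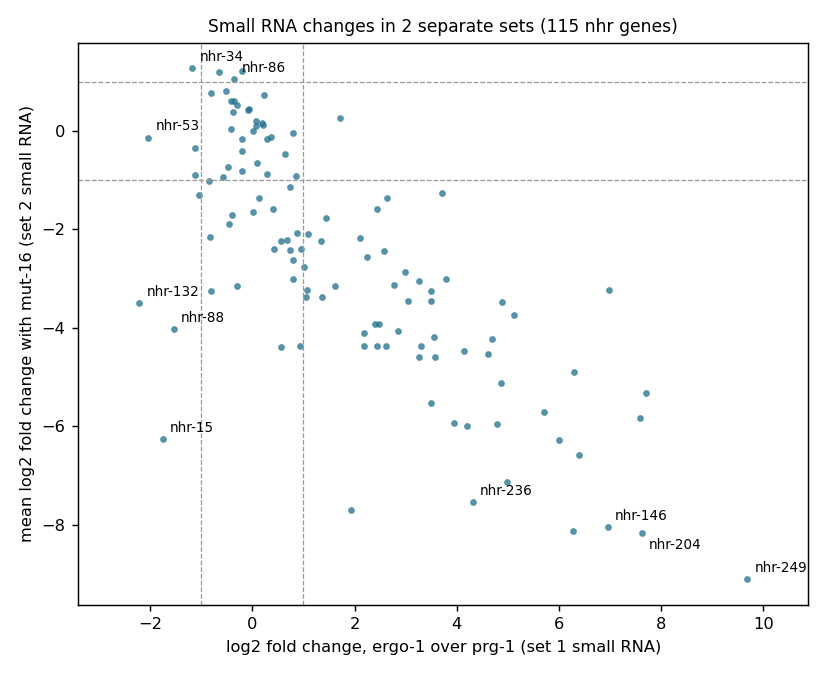
Log2 fold change of small RNA in ergo-1 over prg-1 (set 1, horizontal axis) against the mean log2 fold change with mut-16 (set 2, vertical axis) for the 115 nhr genes tested in both. Of these, 77 lie at the lower right (more in ergo-1, less with mut-16), with nhr-249 at 9.69 and -9.11 and nhr-204 at 7.62 and -8.16, while nhr-15 lies at the lower left at -1.75 and -6.26.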

How the data were processed

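Small RNA was measured in 30 libraries and mRNA in 24. Per the labels' protocols, small RNAs were selected on a gel and mRNA with oligo(dT) beads, with single-end reads of 75 nt. The authors deposited expected counts (estimated counts of reads per gene name) that they had not normalized. Salmon, HISAT2 and cutadapt appear in the submitters' processing notes. The sources used here give neither their versions nor the genome build or the strand setting, so no coordinates are printed, and sequences were not used here. Where reads fit several features, such estimates divide them: 90 of 283 nhr genes with small RNA counts in set 2 had counts more than 0.01 from a whole number in over 50% of the libraries, and 11 of 270 in mRNA. Entries repeating a name (30 nhr genes) were summed; second entries held 0.053% to 0.699% of nhr small RNA counts and none of their mRNA counts, but in set 2 60.8% of the small RNA of nhr-179, 65.2% of nhr-76 and 61.8% of nhr-117 (65.4%, 38.3% and 16.3% in set 1). Symbols came from the RefSeq table of assembly WBcel235, used only for names, biotypes and gene order.

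Counts were rounded and fitted in R 4.3.3 with edgeR 4.0.16 (filterByExpr by strain, TMM, quasi-likelihood, 1 term per strain). The fits covered 11746 features (115 nhr genes) in set 1, 15380 (183) in set 2 small RNA and 15376 (192) in set 2 mRNA, the last with 13 nhr genes at 0 counts throughout. The common biological coefficients of variation were 0.0779, 0.12 and 0.215. P-values were Benjamini-Hochberg adjusted over all features of a comparison, and a call needed an adjusted p below 0.05 and a 2-fold change. The interaction spread is the difference between the highest and lowest mut-16 effect of the 3. Beside a fitted change against a group at 0 counts a bound was computed from a floor of 3 counts over the group; calls and means over backgrounds keep the fitted value, and the mean with the bound is given where the text names such a gene. The ratios with 1 to 3 counts carry exact 95% intervals. The fitting was tested on simulated data.

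Named genes are nhr-249, members of 4 lists of roles (conserved, metabolic, stress and development), the 10 with the most counts per assay, the called genes with the largest changes and a strain mean of at least 1 CPM (10 per direction for the mean mut-16 effect, 5 otherwise), the 5 largest interaction spreads, genes called in both assays, and called genes of 3 lists of related genes. Genes outside it (nhr-74, nhr-93, nhr-172, nhr-218, nhr-235 and nhr-263, members of neighbouring runs, and genes called in both assays in 1 background) were named after their values were seen. The members, lists and comparisons were chosen with earlier results of these data known. Alternatives were RLE and library size scaling, scaling to microRNA counts, no filter, DESeq2 1.42.0, a replicate block, only the strains compared, and leaving out each library.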

Additional observations from a re-analysis of the deposited data

Results flagged for a closer look

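In a test of whether the effect of mut-16 differed between the 3 deletion backgrounds (edgeR's quasi-likelihood test, Benjamini-Hochberg adjusted), 2 nhr genes differed in small RNA, where 9.58% of all features did. The spread between the highest and the lowest effect was 3.80 for nhr-81 (adjusted p = 3.43e-02), whose sosi-1; mut-16 libraries held 0 counts, so that this spread depends on the fit and is no bound. It was 1.14 for nhr-135 (adjusted p = 3.71e-02). The first call was lost in 7 of the leave-one-out fits, the lowest at 3.45 without replicate 1 of the triple mutant, and the second in 13, the lowest at 0.97 without eri-6[e-f] replicate 2.

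In mRNA 83 nhr genes, or 43.2% of those tested, differed between backgrounds, where 60.1% of all features did. The largest spreads among those above 1 CPM were 2.98 in nhr-23, 2.73 in nhr-195, 2.64 in nhr-162, 2.60 in nhr-107 and 2.38 in nhr-43. In nhr-195 the mRNA changed by -1.32 with mut-16 in eri-6[e-f] and by 1.41 in the double deletion, and in nhr-107 by -1.14 and 1.46. In nhr-162 it rose by 2.20 in the double deletion. Of the markers, 7 of 8 germline, 21 of 33 sperm and all 5 muscle genes were called in the same test, against 60.1% of all features. The sperm share is near that of all features. What part these markers had in the receptor results was not tested.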

How the results depend on the processing

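The counts of nhr genes with less small RNA under mut-16 or between strains stayed within 1.5 times under every alternative run, with 3 exceptions: 5 lower in the double deletion than in sosi-1 became 3 at the lowest when 1 library was left out, 0 lower than in eri-6[e-f] became 1 with only the strains compared, and 8 lower in ergo-1 than in prg-1 became 4 with library size, where all features shifted by 0.31. Of all results that are counts, 217 values stayed within 1.5 times and 46 did not. Scaled to microRNA counts, the median of all features moved by -1.21 in the mean mut-16 effect, and the counts of nhr genes with more small RNA became 0 in each background (from 6 in eri-6[e-f], 3 in sosi-1 and 7 in the double deletion) and 1 in the mean (from 6). Under that scaling nhr-86 turned to -0.010 in sosi-1 and -0.155 in the mean, nhr-182 to -0.011 in the double deletion and -0.018 in the mean, nhr-34 to -0.057 and nhr-109 to -0.342 in the double deletion. Such scaling shifts all features of a library alike, and the direction of the shift comes from the microRNA counts of these libraries. Whether these genes rose thus depends on the reference used. The 3 higher in sosi-1 were 1 with RLE scaling or DESeq2, 5 with library size or no filter, and 2 to 5 over the leave-one-out fits (5 without sosi-1; mut-16 replicate 3). The 7 higher in the double deletion were 13 with library size. The 2 small RNA interaction calls were 7 with RLE scaling, 0 with microRNA scaling, 4 with no filter or DESeq2, 8 with only the strains compared and 0 to 5 over the leave-one-out fits.

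The mRNA counts moved more. With library size alone, the median of all features shifted by 0.56 in the double deletion with mut-16, -0.58 and -0.21 in the double deletion against sosi-1 and eri-6[e-f], -0.31 in prg-1; ergo-1 against prg-1; hrde-1, 0.26 in the mean and 0.14 in eri-6[e-f] with mut-16. The mut-16 counts were then 17 lower in eri-6[e-f] (from 33), 1 lower in sosi-1 (from 2), 68 higher and 1 lower in the double deletion (from 31 and 9) and 14 higher in the mean (from 6). Between strains they were 3 higher and 103 lower than in sosi-1 (from 5 and 46), 1 higher than in eri-6[e-f] (from 3) and 72 lower in prg-1; ergo-1 (from 47). With only the strains compared, 3 rose in eri-6[e-f], 1 fell in sosi-1, 3 rose in the mean, 1 was higher in the double deletion than in eri-6[e-f], and the median of the mean effect was -0.069 (from 0.031). With no filter, 1 fell in sosi-1, 2 fell in the mean (from 1) and 2 were higher in prg-1; ergo-1 (from 1). Leaving out single libraries gave 22 to 50 lower in eri-6[e-f] (50 without eri-6[e-f] replicate 3), 2 to 15 higher and from 0 lower in sosi-1, up to 3 lower in the mean and a median from -0.060 to 0.090, from 3 higher and 24 to 56 lower than in sosi-1, up to 11 higher than in eri-6[e-f], and up to 2 higher in prg-1; ergo-1. The 15 and 24 were without sosi-1 replicate 1. The cause was not tested.

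No comparison had all 3 correlations between the deviations of same-numbered libraries above 0.1, so they are taken to share only a number. In mRNA of the double deletion with and without mut-16, every library correlated best with its own number (0.048 to 0.103), a hint from the data and not from the design. With a replicate block, 1 nhr gene in place of 2 fell in mRNA in sosi-1, as nhr-249 lost its call there (-1.81), and the small RNA median of prg-1; ergo-1 against prg-1; hrde-1 was -0.467; the block moved no other count of nhr genes by over 1.5 times. The mRNA of nhr-249 and of members below 1 CPM rests on few counts per library, which limits its precision.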
